A study of Mus musculus with 24 samples.

Results

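The 10 genes described here carry arginine into cells or decide what becomes of it: the arginases Arg1 and Arg2, the nitric oxide synthases Nos1, Nos2 and Nos3, the cationic amino acid transporters Slc7a1, Slc7a2 and Slc7a3, the ornithine decarboxylase Odc1 and the argininosuccinate synthase Ass1. Each was found by its symbol in the deposited gene table, and all 10 were matched among 48709 genes. The set was chosen by measured values as well as by pathway: it was drawn up with the exposed-to-control differences of these cortex libraries known, those of Arg1 and Arg2 in particular. The differences between exposed and control libraries are therefore given for these genes as a description, with counts of calls set beside the share of all genes and no p for a member. The interaction with sex and the difference between tissues were tested. The first is another contrast, but of the same cortex and blood libraries. In cortex it is built from the exposure differences within each sex, so for Arg1 it is a description too, with no p.

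RNA was sequenced from the whole blood and the dissected cortex of neonatal mice that the labels give as C57BL/6J (C57BL/6NJ in the study's methods) and place at 3 to 5 days of age. Dams breathed nano-sized particulate matter (nPM) for 5 h a day on 3 days a week, from gestational day 2 to birth, or filtered air. Each of the 4 groups (cortex control, cortex nPM, blood control and blood nPM) held 6 libraries, 3 from females and 3 from males. The labels name no genetic alteration in any group, the exposure ended at birth, and the study took both tissues from the same animals, of different litters. The labels tie no library to an animal or litter, so the tests treat the libraries as independent, between the tissues too.

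Arginine is a branch point. Arginases cut it into urea and ornithine, nitric oxide synthases turn it into nitric oxide and citrulline, and Ass1 begins the route by which citrulline is made back into arginine. Ornithine is the substrate of Odc1, the first and tightly controlled step of polyamine synthesis. In the brain, Nos1 marks scattered inhibitory neurons, Nos3 belongs to vessel walls, and Nos2 and Arg1 are the enzymes usually read in activated macrophages. In neonatal blood, most RNA comes from maturing red cells.

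The 2 arginases make the same reaction run from separate genes, so whether reads can be told apart between them bears on every value below. The coding sequences of Arg1 (969 bases) and Arg2 (1062 bases) were 64.9% identical where they aligned. The longest run of bases found in both, at any position, was 12 bases long and is shown in capitals inside the 84 coding bases around it (positions 487 to 570 of Arg1 and 544 to 627 of Arg2, counted from the start codon, Gencode M21 on GRCm38).
Arg1 coding stretch: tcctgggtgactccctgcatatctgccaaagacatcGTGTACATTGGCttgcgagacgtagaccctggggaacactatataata
Arg2 coding stretch: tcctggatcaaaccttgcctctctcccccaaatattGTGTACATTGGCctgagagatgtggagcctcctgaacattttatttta
The shared run is far shorter than the 50-base windows used to look for copies, and no 50-base window of Arg1 or Arg2 occurred in a transcript of another gene. The same was true of Nos2, Nos3 and Slc7a3. Coding identity within the 3 Nos genes was 65.0% to 68.5%, and within the 3 Slc7a genes 65.7% to 66.2%.

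Counts of Odc1 and Ass1 are less certain. Of the 50-base windows of Odc1, 24.3% also occurred in transcripts of 15 other genes, led by Gm7993. Of those of Ass1, 38.6% occurred in 1 other gene, Gm5424. For Nos1, Slc7a1 and Slc7a2 these shares were 0.205%, 0.104% and 0.362%. Whether reads were counted by strand is not given in the sources used here, and Arg2, Nos1, Nos3 and Slc7a2 each overlap a gene annotated on the opposite strand.

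In the mm10 coordinates of the files, Arg1 (ENSMUSG00000019987) is on the minus strand of chromosome 10 from 24915208 to 24927470, and Arg2 (ENSMUSG00000021125) on the plus strand of chromosome 12 from 79130777 to 79156301. Nos1 (ENSMUSG00000029361) spans 117781032 to 117958840 and Nos3 (ENSMUSG00000028978) spans 24364810 to 24384474, both on the plus strand of chromosome 5. Nos2 (ENSMUSG00000020826) lies on chromosome 11 from 78920787 to 78960254, plus strand. Slc7a1 (ENSMUSG00000041313) lies on chromosome 5 from 148327410 to 148399904, minus strand, Slc7a2 (ENSMUSG00000031596) on chromosome 8 from 40862396 to 40922308, plus strand, and Slc7a3 (ENSMUSG00000031297) on chromosome X from 101079210 to 101086020, minus strand. Odc1 (ENSMUSG00000011179) lies on chromosome 12 from 17544873 to 17551502 and Ass1 (ENSMUSG00000076441) on chromosome 2 from 31470207 to 31520672, both on the plus strand. All 10 are annotated as protein coding, and counts are sums over the exons of the whole gene.

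Totals were 22301409 to 33804371 counts in cortex and 13595647 to 21895536 in blood. A floor of 3 counts corresponded to 0.0887 to 0.135 CPM (counts scaled to a common library total) in cortex and 0.137 to 0.221 CPM in blood, which covers counting error alone. One filtered-air female blood library stood apart and was left out of the blood comparisons. It had counts for 22461 genes, against 13254 to 17273 in the other 11 blood libraries. Its 8 fibroblast markers summed to 4384 CPM, against 8.77 to 51.3 CPM. These markers include collagen genes and do not tell meninges from other connective tissue. Globin genes took 50.1% of its counts and 66.2% to 76.8% of those of the other blood libraries. The tissue labels held in the remaining 23 libraries, with 8 neuronal markers summing to 7444 to 8948 CPM in cortex and to 0.202 to 34.5 CPM in blood.

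Levels were first set out in the filtered-air neonates. On a per-length scale (CPM divided by the exon length in kilobases, RPKM, scaled within each tissue), Odc1 was the highest of the 10 genes in cortex at 28.1 ± 1.79 RPKM (SD, n = 6). Slc7a1, the broadly used arginine carrier, followed at 6.80 ± 0.460 RPKM, and its libraries did not overlap those of Odc1 or of Ass1 below it. Ass1 (4.70 ± 0.311 RPKM), Slc7a3 (3.91 ± 0.415), Arg2 (3.65 ± 0.729), Nos1 (3.20 ± 0.368) and Slc7a2 (2.91 ± 0.163) came next, and each overlapped its neighbours in this order. Nos3 had a lower mean than all of these, at 2.03 ± 0.352 RPKM, and did not overlap Slc7a2. Its highest library (2.39 RPKM) lay above the lowest of Arg2 (2.28 RPKM). Nos2 (0.153 ± 0.0474 RPKM) and Arg1 (0.0900 ± 0.0567 RPKM) closed the order, with at most 30 and 7 counts in a control library, and their ranges overlapped.

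In control blood, Odc1 was at 58.3 ± 25.8 RPKM (SD, n = 5) and every other member was at or below 0.198 RPKM. Ass1 (0.198 ± 0.0825 RPKM), Arg2 (0.189 ± 0.0758) and Slc7a1 (0.132 ± 0.0360) were measured in every library and overlapped each other. The remaining 6 genes had 0 counts in 3 or 4 of the 5 control blood libraries, and none of them exceeded 12 counts in any.

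**Figure D1:**
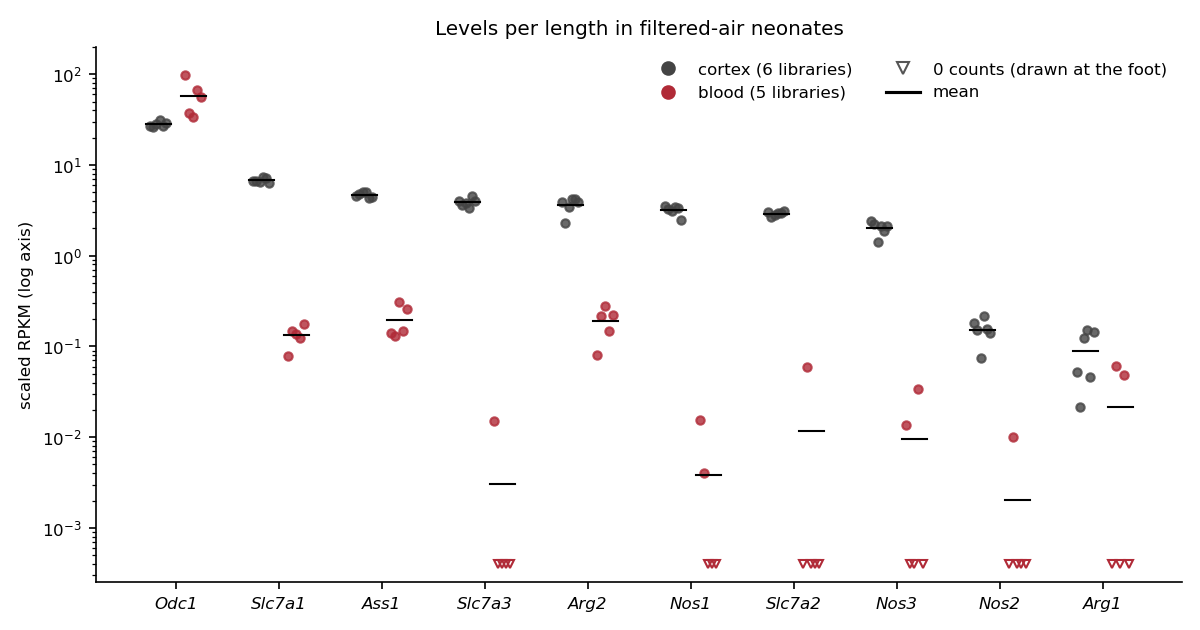
Per-length level (RPKM, log axis, scaled within each tissue) of the 10 genes in the 6 control cortex libraries (grey) and 5 control blood libraries (red), in the order of their cortex means; points are libraries, bars are means and open triangles are libraries with 0 counts. Odc1 is the highest gene in both tissues, and the 6 genes at or near 0 in blood are the nitric oxide synthases, Slc7a2, Slc7a3 and Arg1.

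Whether the members differ between the tissues was tested in the controls with edgeR's quasi-likelihood test, with 76.9% of 18612 genes past an adjusted p of 0.05 and a median cortex-minus-blood difference over all genes of 1.02 on the log2 scale. Of the 9 members that passed the filter on low counts, 5 were higher in cortex and 1, Odc1, was lower. Of all genes tested, 50.7% were higher and 26.1% lower. Odc1 differed by -5.48 (SE 0.28, adjusted p = 3.21e-12). By plain CPM, which divides by the library total alone, it was at 71.4 ± 4.15 CPM in cortex (n = 6) and 139 ± 45.0 CPM in blood (n = 5). The test itself scaled libraries by factors from the trimmed mean of M-values (TMM), and with the globin genes left out it gave -5.42. With library totals alone the median over all genes moved to 5.36, 8 members were called higher in cortex, and Odc1 stayed lower, at -0.96.

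The carriers were all higher in cortex. Slc7a3, a carrier known from brain, differed by 5.98 (SE 0.58, adjusted p = 2.20e-08), Slc7a2, an inducible carrier, by 3.30 (SE 0.51, adjusted p = 9.69e-06), and Slc7a1 by 1.28 (SE 0.15, adjusted p = 4.53e-07, edgeR). The Slc7a1 difference lies close to the median of all genes. With the library that stood apart kept in, the number of members called higher in cortex went from 5 to 3, with Slc7a1 at 0.67 and Slc7a2 at 1.48 and neither past the threshold. All 12 blood counts of Slc7a2 were in control replicate 2, a male, and the only blood count of Slc7a3 was in control replicate 1, a female. Without those libraries the fitted differences were 11.9 and 11.1, against blood libraries all at 0, and are no bound.

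Among the synthases, Nos1 was higher in cortex by 5.29 (SE 0.43, adjusted p = 1.94e-09, edgeR) and Nos3 by 3.604 (SE 0.60, adjusted p = 2.81e-05, edgeR). Nos2 differed by 1.55 (SE 1.2, adjusted p = 0.242, edgeR), with an approximate 95% interval of -0.80 to 3.90. Without control replicate 2, which held its only blood count, Nos2 differed by 6.65, again not past the threshold. Control blood held 3 counts of Nos3 and 1 each of Nos2 and Slc7a3 over 5 libraries. By pooled plain CPM, which uses library totals alone, the cortex-to-blood ratio was 264 (90 to 1280) for Nos3, 63.9 (11.3 to 2540) for Nos2 and 1390 (249 to 54900) for Slc7a3. The brackets hold an exact counting interval, which leaves out variation between animals. In the edgeR fit with library totals alone, the median over all genes was itself 5.36 higher in cortex on the log2 scale.

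Arg2 (-0.20, SE 0.34, adjusted p = 0.591, edgeR) and Ass1 (0.12, SE 0.23, adjusted p = 0.663, edgeR) did not pass the test under TMM scaling, while with library totals alone they were 4.17 and 4.50 higher in cortex and past it. Both were under the median of all genes on either scale. Arg1 did not pass the filter on low counts, with 24 counts over 6 control cortex libraries and 3 over 5 control blood libraries.

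Odc1 and Slc7a1 were the only members with 16 or more counts in every one of the 23 libraries, and the tests put them on opposite sides of the 2 tissues. The sequence upstream of their starts is therefore shown (RefSeq, GRCm38.p6, 5′ to 3′ on the strand of the gene), with matches to GGGCGG, the core of a GC box, or to TGACG, the core of a cyclic AMP response element, in capitals on either strand. The Odc1 window is chr12:17544623-17544793, plus strand, ending before the first annotated exon, and the Slc7a1 window is chr5:148399905-148400154, minus strand.
Odc1 upstream: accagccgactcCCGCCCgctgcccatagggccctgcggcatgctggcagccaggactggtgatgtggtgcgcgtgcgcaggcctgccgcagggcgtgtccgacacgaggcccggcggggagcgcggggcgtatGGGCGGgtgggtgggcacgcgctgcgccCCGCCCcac
Slc7a1 upstream: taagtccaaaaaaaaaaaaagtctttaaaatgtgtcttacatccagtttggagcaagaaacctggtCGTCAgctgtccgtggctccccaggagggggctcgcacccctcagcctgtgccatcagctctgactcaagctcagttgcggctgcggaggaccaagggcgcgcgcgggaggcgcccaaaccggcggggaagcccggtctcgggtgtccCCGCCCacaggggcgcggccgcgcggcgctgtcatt
The Odc1 window of 171 bases held 3 GGGCGG matches and no TGACG, and the Slc7a1 window of 250 bases held 1 of each. At those lengths, 19.6% and 32.7% of 32851 mouse promoters held a GGGCGG match, and 17.8% held TGACG in 250 bases. Neither window held TATAAA, which was present in 12.4% of promoters. The 250 bases before the Odc1 start held 35 CG pairs, more than 97.0% of promoters (median 6), and those before this Slc7a1 start held 21, more than 83.7%. Another listed Slc7a1 start, inside the gene, had 5 CG pairs before it, more than 44.4% of promoters. The matches did not overlap one another and are a description of these letters.

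The effect of exposure in cortex was then described, over 6 nPM and 6 control libraries. All 10 members had counts in every cortex library and entered the fit. At an unadjusted p under 0.05, 3 of the 10 were called (Arg1, Arg2 and Slc7a3, all higher after nPM), where 5.67% of 20857 genes were called in either direction and 2.73% as higher. At an adjusted p under 0.05, edgeR and limma called 0 members and DESeq2, which gave Arg1 no adjusted p, called 1, Slc7a3. Of all genes edgeR called 0.0144% (3 genes) and DESeq2 called 22. Since the set was chosen with this comparison known, nothing is read from these counts. The median log2 fold change was 0.00908 over the 10 members and -0.00242 over all genes, with 5 members above 0 and 5 below.

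Slc7a3 was at 12.7, 14.7 and 17.36 CPM (lowest, median and highest of 6) in control cortex and at 17.39, 19.2 and 19.98 CPM after nPM. Every exposed library lay above every control, by 0.0294 CPM at the closest point. Means were 14.8 ± 1.57 and 18.97 ± 0.986 CPM (SD over 6 libraries each), and the fitted log2 fold change was 0.36 (SE 0.07). The libraries of the other carriers overlapped between the groups. Slc7a1 was at 78.4 ± 5.30 CPM in controls and 75.6 ± 3.44 CPM after nPM (log2 fold change -0.05, SE 0.05). Slc7a2 was at 26.6 ± 1.49 and 26.5 ± 1.86 CPM (-0.01, SE 0.06).

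Arg1, the arginase of the urea cycle, was close to the detection floor. Control libraries held 1 to 7 counts and exposed libraries 9 to 17. On the CPM scale the controls were at 0.0319, 0.129 and 0.223 (lowest, median and highest) and the exposed libraries at 0.289, 0.396 and 0.526, so the groups did not overlap. The log2 fold change was 1.57 (SE 0.41, n = 6 each).

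Arg2, the mitochondrial arginase, was at 3.26, 5.57 and 6.00 CPM in controls and at 6.08, 6.29 and 7.57 CPM after nPM. The highest control lay just under the lowest exposed library. The log2 fold change was 0.36 (SE 0.14), and without the lowest control, a female, it was 0.25. Groups of libraries that did not overlap, with nPM higher, were found for 0.129% of 20857 genes in this comparison, and for Arg1, Arg2 and Slc7a3 among the members.

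The direction within each of the 2 sequencing lanes is fixed by groups that do not overlap, and only the sizes are described. In lane 2 (4 libraries against 4) the differences on the log2 scale were 1.75 for Arg1, 0.51 for Arg2 and 0.43 for Slc7a3. In lane 3 (2 against 2) they were 1.5, 0.10 and 0.23. RNA integrity averaged 9.58 in nPM and 9.60 in control cortex. In bulk tissue, fewer cells of a type and less RNA per cell cannot be told apart, so markers of myeloid cells, hepatocytes and choroid plexus are given here. The 8 microglia markers summed to 193 to 319 CPM (median 234) in controls and 196 to 271 CPM (median 229) after nPM. The 8 monocyte markers summed to 111 to 144 CPM (median 128) in controls and 122 to 141 CPM (median 128) after nPM. The 8 border macrophage markers had counts in every cortex library and summed to 33.5 to 49.3 CPM (median 44.6) in controls and 44.6 to 54.7 CPM (median 50.8) after nPM. The 9 neutrophil markers summed to 0.383 to 3.13 and 0.272 to 1.85 CPM, with 4 and 3 of them counted in every library of the group and Elane at 0 in all exposed libraries. The 8 hepatocyte markers summed to 2.48 to 3.47 and 2.20 to 3.43 CPM, with Ahsg and Serpina1a at 0 in all cortex libraries. The 8 choroid plexus markers summed to 34.7 to 403 CPM (median 352) in controls and 240 to 516 CPM (median 408) after nPM. Control replicate 3, a male, stood apart with the lowest choroid plexus (34.7 CPM, others 321 to 403), endothelial (125 CPM, others 170 to 177) and border macrophage sums of its group. Without it the log2 fold changes were 1.64 for Arg1, 0.34 for Arg2 and 0.37 for Slc7a3. The part of these cells in the arginase values was not tested.

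The exposed and control libraries of all 3 nitric oxide synthases overlapped. Nos1, the neuronal enzyme, was at 35.6 ± 4.10 CPM in control and 36.2 ± 2.57 CPM in nPM cortex (log2 fold change 0.03, SE 0.07). Nos3, the endothelial enzyme, was at 8.38 ± 1.45 and 8.26 ± 0.366 CPM (-0.02, SE 0.11), and its spread was widest among the controls, from 5.79 to 9.88 CPM. The inducible Nos2 was at 0.675 ± 0.209 and 0.671 ± 0.173 CPM (-0.01, SE 0.27), on 9 to 30 counts a library. Endothelial markers summed to 125 to 177 CPM in controls and 168 to 182 CPM after nPM. Interneuron markers (Sst, Npy, Chodl, Tacr1, Lhx6, Nkx2-1 and Satb1) summed to 277 to 314 CPM in controls and 284 to 305 CPM after nPM. Not all of these are particular to the cells that carry Nos1.

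Odc1 was at 71.6 ± 4.55 CPM in control and 75.5 ± 8.04 CPM in nPM cortex (log2 fold change 0.08, SE 0.06). Ass1 was at 11.3 ± 0.751 and 10.9 ± 0.657 CPM (-0.05, SE 0.07). Both pairs of groups overlapped.

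**Figure D2:**
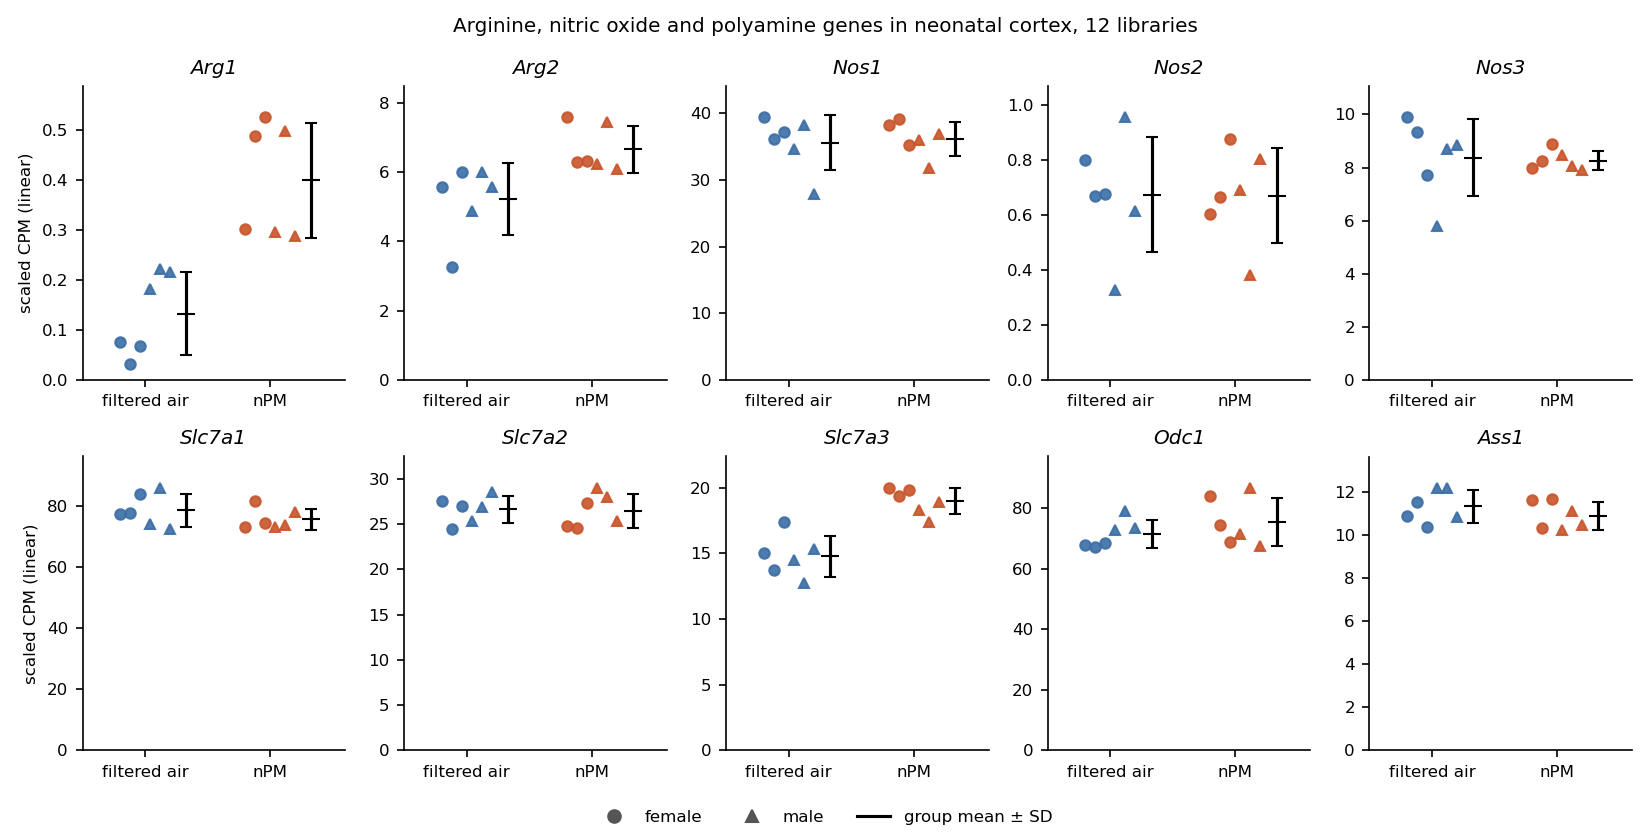
Scaled CPM (linear axes from 0, a separate scale for each gene) of the 10 genes in the 12 cortex libraries, filtered air in blue and nPM in orange; circles are females, triangles males, and black bars the group mean ± SD (n = 6). The exposed libraries of Arg1, Arg2 and Slc7a3 all lie above the controls, and the groups of the other 7 genes overlap.

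Whether the exposure difference was the same in both sexes was tested as an nPM-by-sex interaction, the male minus the female log2 fold change. It passed an unadjusted p of 0.05 for 1 of the 10 members, Arg1, where 9.68% of 20857 genes did. At the adjusted threshold edgeR called 0 members and 0 of all genes. DESeq2, which gave Arg1 and Nos2 no adjusted p, called 0 members and 50 of all genes. The values of Arg1 in these libraries were known when the set was chosen, so nothing is read from this call. The interaction of Arg1 was -2.27 (SE 0.73), given as a description.

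The counts behind it are few. Control females held 1, 2 and 2 counts of Arg1 (0.0587 ± 0.0236 CPM, n = 3) and control males 5, 7 and 7 (0.207 ± 0.0217 CPM). Exposed females held 10, 11 and 15 counts (0.439 ± 0.120 CPM) and exposed males 9, 9 and 17 (0.362 ± 0.119 CPM). The sexes lay apart among the controls and overlapped among the exposed libraries. How many of all genes lie apart in groups this small was not counted. The fitted log2 fold change was 2.92 (SE 0.53) in females and 0.65 (SE 0.44) in males, and the male value was 0.42 without nPM replicate 4.

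For Slc7a3 the effects in the sexes were nearly equal, at 0.35 (SE 0.10) in females and 0.37 (SE 0.10) in males. Control females were at 13.8, 15.04 and 17.4 CPM and exposed females at 19.4, 19.8 and 19.98 CPM. Control males were at 12.7, 14.5 and 15.3 CPM and exposed males at 17.4, 18.3 and 18.9 CPM. The interaction was 0.02 (SE 0.14, unadjusted p = 0.910, edgeR), and its approximate 95% interval of -0.27 to 0.30 holds differences nearly as large as the effect.

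Arg2 differed by 0.44 (SE 0.20) in females and 0.28 (SE 0.20) in males. The female value was 0.18 without control replicate 2 and 0.67 without control replicate 5. The sexes had an interaction of -0.15 (SE 0.29, unadjusted p = 0.608, edgeR). Odc1 was at 67.3, 68.0 and 68.7 CPM in control females and at 68.9, 74.5 and 84.0 CPM in exposed females. In males it was at 72.9, 73.5 and 79.2 CPM in controls and 67.6, 71.4 and 86.8 CPM after nPM. For Odc1 every exposed female lay above every control female, and the male groups overlapped. The share of all genes with groups of 3 libraries that lie apart was not counted. The Odc1 interaction was -0.14 (SE 0.13, unadjusted p = 0.310, edgeR). The remaining 6 members had interactions between -0.15 (Ass1) and 0.13 (Nos3), with unadjusted p-values of 0.311 and above.

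**Figure D3:**
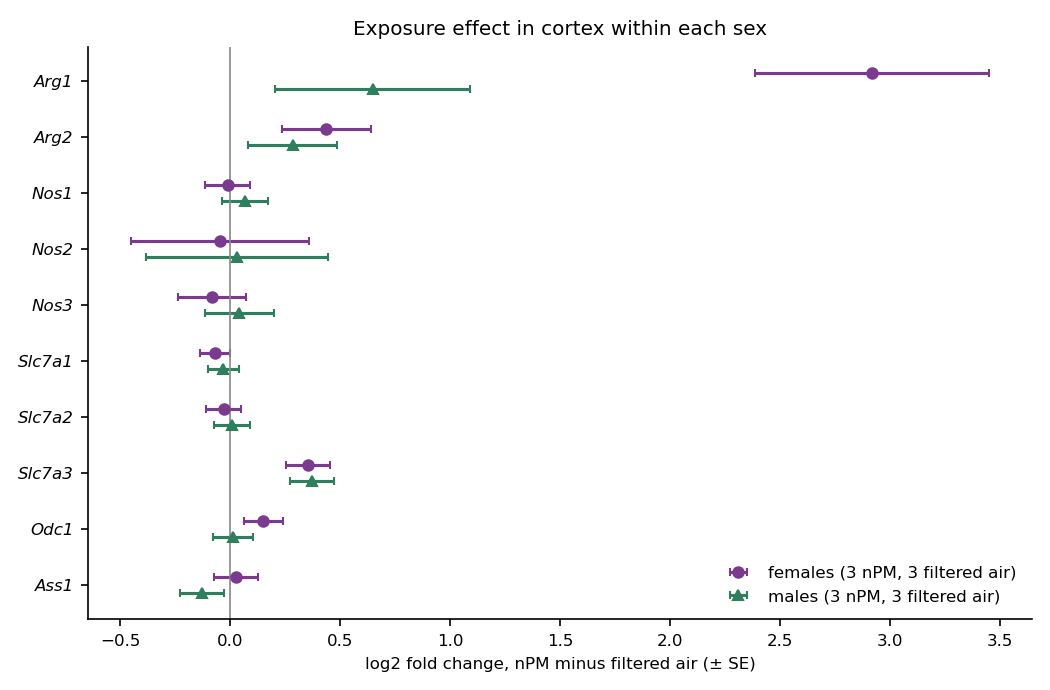
Log2 fold change of nPM over filtered air in cortex, with its standard error as the bar, for females (purple circles) and males (green triangles), 3 exposed and 3 control libraries each. Arg1 sits at 2.92 in females and 0.65 in males, while Slc7a3 sits at 0.35 and 0.37.

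The genes whose cortex pattern was most like that of Arg1 and of Nos1 were sought over the 12 libraries after taking off the means of the 4 sex-by-exposure groups, among genes with at least 10 counts in every library. For Arg1 these were Nova1 (Pearson r = 0.928), Arhgap36 (0.928) and Kdelr3 (0.917), the highest of 16660 genes. For Nos1 they were Cntrl (0.975), Atp7a (0.968) and Gm37943 (0.955), of 16659 genes. Nova1 is a neuronal splicing factor, Kdelr3 a receptor that returns proteins to the endoplasmic reticulum, Cntrl a centriole protein and Atp7a a copper pump. All points share library depth and composition, and for Arg1 they rest on 1 to 17 counts. With 4 means taken off 12 libraries, the highest r of so many genes can be this large by selection alone. No link to these genes is read from it.

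In blood, 4 of the 10 members had a count in each of the 11 libraries and were fitted. None passed an unadjusted p of 0.05 for the exposure effect, where 3.11% of 9977 genes did. At an adjusted p of 0.05 edgeR called 0 genes, with 310 under an unadjusted 0.05, limma voom called 0 and DESeq2 called 1, no member among them. The median log2 fold change was -0.0892 over the 4 members and 0.00241 over all genes.

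Odc1 was at 86.1, 94.4, 144, 170 and 248 CPM in the 5 control libraries and at 114, 154 and 203 CPM (lowest, median and highest of 6) after nPM. The control libraries spanned the whole exposed range. The log2 fold change was -0.03 (SE 0.25). Slc7a1 was at 0.910, 1.41, 1.58, 1.70 and 2.04 CPM in controls and at 1.08, 1.32 and 1.76 CPM after nPM, again overlapping (-0.15, SE 0.27).

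Ass1 was at 0.313, 0.341, 0.353, 0.628 and 0.752 CPM in controls and at 0.148, 0.493 and 1.17 CPM after nPM (0.30, SE 0.46). Arg2 was at 0.114, 0.212, 0.313, 0.314 and 0.394 CPM in controls and at 0.0492, 0.128 and 0.327 CPM after nPM (-0.70, SE 0.53). Ass1 rested on 3 to 25 counts and Arg2 on 1 to 11, and both overlapped between the groups. With the library that stood apart kept in, the effects were -0.82 for Slc7a1, 0.24 for Odc1, -0.01 for Ass1 and -1.31 for Arg2. Leaving out 1 library at a time moved Odc1 over -0.18 to 0.14 and Ass1 over -0.06 to 0.49, so neither kept its sign.

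**Figure D4:**
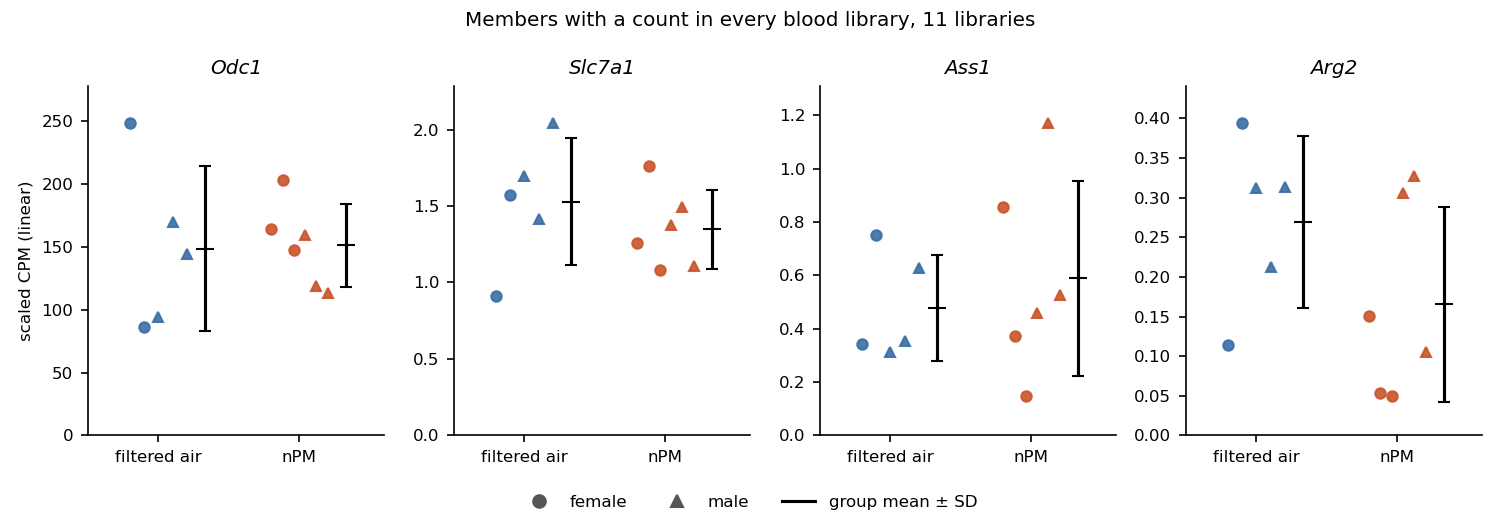
Scaled CPM (linear axes from 0) of the 4 genes with a count in every blood library, for 5 filtered-air (blue) and 6 nPM (orange) libraries; circles are females, triangles males, and black bars the group mean ± SD. The exposed and control libraries overlap for all 4 genes.

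The nPM-by-sex interaction in blood passed an unadjusted p of 0.05 for 0 of the 4 members and for 10.7% of 9977 genes. At the adjusted threshold it passed for 0 genes by edgeR, and by DESeq2 for 0 members and 4 of all genes. It was 1.83 for Arg2 (SE 1.10, unadjusted p = 0.112), 1.74 for Ass1 (SE 0.91, unadjusted p = 0.0706), -0.50 for Slc7a1 (SE 0.55, unadjusted p = 0.375) and -0.30 for Odc1 (SE 0.55, unadjusted p = 0.586), all from edgeR. These rest on 2 control females. With the third control female kept in, 2 members passed the unadjusted threshold, where 13.6% of 9963 genes did, and Slc7a1 turned to 0.95.

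The other 6 members were at or near 0 in blood. Slc7a3 had 1 count in 1 control library and 0 in all 6 exposed libraries. Nos2 had 1 count in 1 control and 2 exposed libraries. Arg1 had at most 2 counts in a library, over 2 control and 2 exposed libraries, and Nos3 had at most 2. Nos1 and Slc7a2 were as low, except for 13 counts of Nos1 and 10 of Slc7a2 in 1 exposed male, 12 counts of Slc7a2 in 1 control male and 3 counts of Nos1 in 1 control female. For these 6 genes a difference between exposed and control blood was not detectable at this depth.

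The surroundings of the pathway were read from 61 further genes in 10 lists. In cortex 54 had counts in every library. For the exposure effect, 2 of 54 passed an unadjusted p of 0.05, both higher after nPM, where 5.67% of all genes did, so the list held no larger share than all genes. After adjustment 0 passed by edgeR, with a median of 0.0104 on the log2 scale. Nostrin, a partner of endothelial nitric oxide synthase that moves it within the cell, had a log2 fold change of 0.33 (SE 0.13, unadjusted p = 0.0276, adjusted p = 0.862, edgeR). Ddah1, which breaks down methylarginines that inhibit the synthases, had 0.11 (SE 0.05, unadjusted p = 0.0322, adjusted p = 0.862, edgeR).

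In blood 38 of the 61 genes were tested, and 1 passed the unadjusted threshold, where 3.11% of all genes did. Prkg1, a kinase activated by cyclic GMP, had a log2 fold change of 1.27 (SE 0.47, unadjusted p = 0.0140, adjusted p = 1.00, edgeR). The median was 0.0599.

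**Figure D5:**
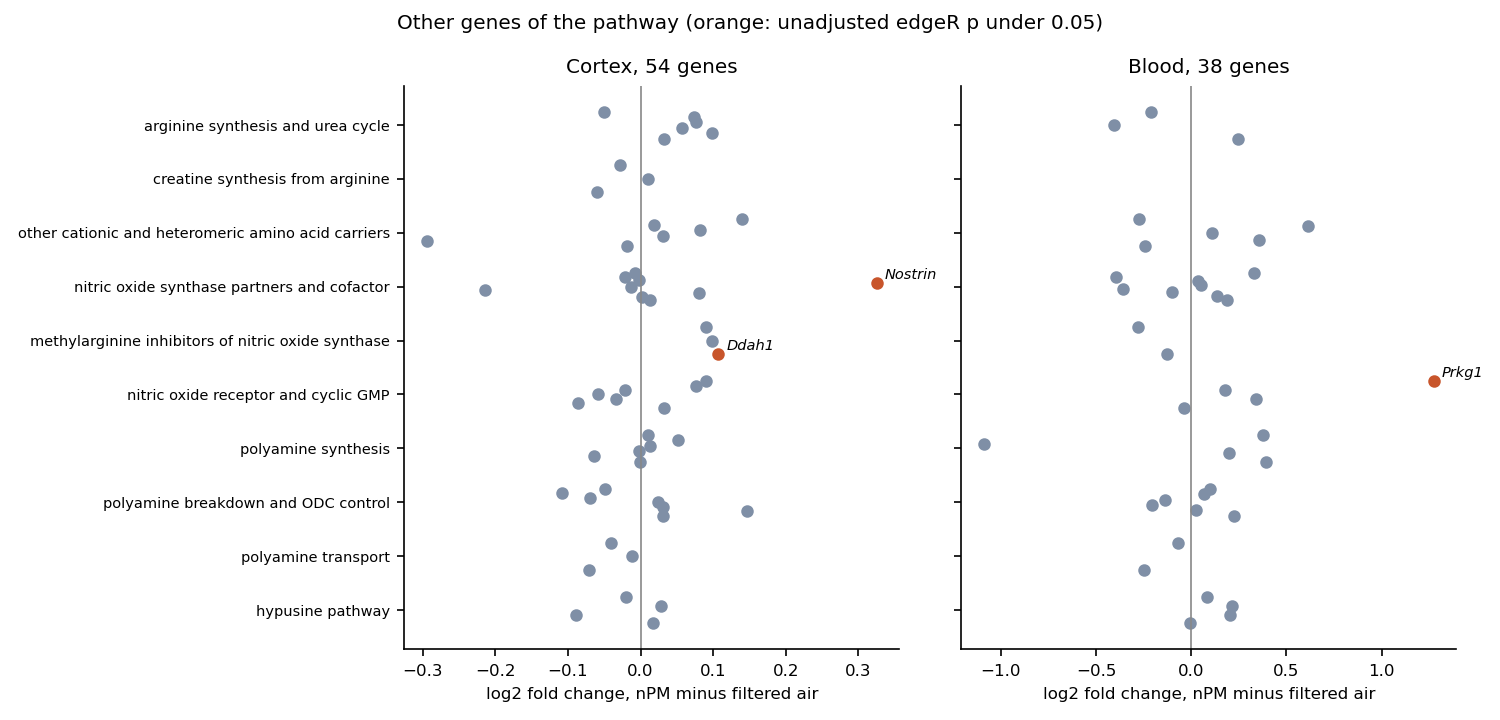
Log2 fold change of nPM over filtered air for the other genes of the pathway by list, 54 genes in cortex (left) and 38 in blood (right, on a wider axis); each point is a gene, orange where the unadjusted edgeR p was under 0.05. Nostrin (0.33) and Ddah1 (0.11) are the orange points in cortex and Prkg1 (1.27) the one in blood, and 0 genes passed the adjusted threshold in either tissue.

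The interaction with sex in cortex passed an unadjusted p of 0.05 for 6 of the 54 genes, 1 with the higher log2 fold change in males and 5 with the higher one in females, where 5.0% and 4.68% of all genes did. Srm, the spermidine synthase that acts on the product of Odc1, had the smallest p (-0.41, SE 0.09, unadjusted p = 0.00064, adjusted p = 0.303, edgeR), with effects of 0.21 in females and -0.20 in males. Eif5a, the translation factor that carries the spermidine-derived residue hypusine, followed (-0.31, SE 0.08, unadjusted p = 0.00195, adjusted p = 0.334, edgeR), at 0.18 in females and -0.13 in males. Smox, the spermine oxidase, had -0.31 (SE 0.11, unadjusted p = 0.0141, adjusted p = 0.411, edgeR). The others were Slc3a1 (-1.56), Dynll1 (-0.20) and Nos1ap (0.46), with adjusted p-values of 0.468 to 0.516 from edgeR. None of the 6 held after adjustment over all genes.

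In blood 7 of 38 genes passed the unadjusted threshold for the interaction, 3 upwards (Mtap, Atp13a2 and Atp13a3) and 4 downwards (Prkg1, Pde5a, Smox and Dohh), where 10.7% of all genes passed in either direction, and 0 after adjustment by edgeR. Mtap, which recovers the methylthioadenosine released in polyamine synthesis, had the smallest p (2.65, SE 0.93, unadjusted p = 0.0101, adjusted p = 0.452, edgeR).

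Between the tissues, 29 of the 54 genes tested were higher in control cortex and 17 lower at an adjusted p under 0.05. Of all 18612 genes, 50.7% were higher and 26.1% lower, so these counts lie near the general shares. In the list of polyamine breakdown and Odc1 control, the antizyme Oaz1, which marks Odc1 for degradation, was lower in cortex by -7.40 (adjusted p = 8.24e-16, edgeR) and Smox by -7.47 (adjusted p = 7.70e-15, edgeR). Both were named here after their values were seen, outside the rule for naming pathway genes. Tissue differences of the other genes of that list are not given, so nothing is read from the choice. Both differences are larger than the shift of the median of all genes between the scalings.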

How the data were processed

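RNA from neonatal cortex and blood was made into ribosome-depleted libraries and sequenced on an Illumina HiSeq. Per the study's methods and the submitters' processing notes, the authors checked reads with FastQC, trimmed them with Trimmomatic, aligned them to mm10 with HISAT2 and counted reads per gene with featureCounts 1.5.0-p3 on Gencode M11. They deposited raw gene counts for 24 libraries, which were used here without change. A deposited column with the authors' mean RPKM was not used. Strandedness is not given in the sources used here.

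Counts were scaled by TMM within each tissue (edgeR 4.0.16, R 4.3.3). A gene entered a fit when none of its libraries was at 0 (1 count or more in each), and was tested by the quasi-likelihood method of edgeR, with sex and RNA integrity number as covariates and, for the second model, an exposure-by-sex term; the tissue difference in controls used filterByExpr and sex. P-values were adjusted over all genes tested by Benjamini-Hochberg. The study left out 1 blood sample for its count distribution without naming it, and the control female library described in the report was left out here. DESeq2 1.42.0, limma 3.58.1 (voom), other scalings, filters and covariates, and each library left out in turn, were alternatives. The fits were tested on simulated data. Log2 fold changes used a prior count of 0.125 and correlations a prior count of 0.5.

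The members and gene lists were chosen with earlier results of these data known. Named genes were all 10 members, those of the pathway lists past an unadjusted p of 0.05 in an exposure comparison (at most 6 per comparison, by smallest p), and the 3 genes most like Arg1 and Nos1 by Pearson r. The tissue differences of Oaz1 and Smox were named outside this rule. Intervals of fitted values are at 95%, taken as the estimate plus or minus a normal multiple of its SE. The SE was the size of the log2 fold change divided by the square root of the F statistic. With so few libraries these intervals are approximate, and narrower than ones from a t distribution. Sequence windows came from Gencode M21 transcripts and RefSeq promoters, in which 4 members were matched.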

Additional observations from a re-analysis of the deposited data

Results flagged for a closer look

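Of 31 pairs of a gene and a group of libraries tested for a value far from the others (Dixon's ratio), 3 passed, all in blood. Its chance rate of about 1 of 20 holds for normally spread values, not for counts mostly at or near 0. Where all other libraries of a group are at 0, the ratio passes by construction, so nothing is read from the number passing. Nos1 was at 0.608 CPM (13 counts) in 1 nPM male, where the other 5 exposed libraries held 0 to 0.105 CPM. Slc7a2 was at 0.468 CPM (10 counts) in the same library, with the others at 0 to 0.0533 CPM. Slc7a2 was at 0.536 CPM (12 counts) in 1 control male, with the other 4 control libraries at 0. Neuronal markers summed to 34.5 CPM in that nPM male and to 9.92 CPM in that control male, and to 0.202 to 10.2 CPM and 0.286 to 10.4 CPM in the others of their groups. The control library at 10.4 CPM held 0 counts of Slc7a2 and 3 of Nos1, and the nPM library at 10.2 CPM held 1 and 0. The part of neuronal RNA in these values was not tested.

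The effect of nPM on Arg1 in cortex differed between the sexes by -2.27 on the log2 scale (SE 0.73), on 1 to 17 counts a library. Its values there were known when the set was chosen, so nothing is read from this flag.

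The control female blood library left out of the comparisons held 7 of the members at more than the highest plain CPM of the other 11 blood libraries. Arg1 was at 3.40 CPM (72 counts, others at most 0.0988), Arg2 at 8.22 CPM (others at most 0.502) and Ass1 at 9.11 CPM (at most 1.35). Slc7a1 was at 57.5 CPM (at most 2.01) and Slc7a2 at 16.5 CPM (at most 0.593). Nos3 was at 0.897 CPM (at most 0.108) and Nos2 at 0.236 CPM (5 counts, at most 0.0518). All 8 fibroblast markers, which do not tell meninges from other connective tissue, had counts in this library. They summed to 4384 CPM, above the 132 to 322 CPM of control cortex. The part of fibroblasts or other tissue in these values was not tested.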

How the results depend on the processing

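Directions of the exposure effects of Arg1, Arg2 and Slc7a3 in cortex held in every alternative run. With groups of libraries that do not overlap they could hardly turn, so this adds no support. Leaving out 1 library moved these effects over 1.37 to 1.76, 0.25 to 0.45 and 0.32 to 0.40 on the log2 scale. The number of members called at an adjusted p under 0.05 in cortex was 1 with DESeq2 (22 of all genes) and 1 when genes with a count in any library were tested (185 of 32461), and 0 in the other fits of both sexes; in the fit of females alone 1 member was called, with 1.11% of 21731 genes. With that filter, 4 pathway genes in cortex and 6 in blood passed an unadjusted p of 0.05; in blood 2 did with DESeq2 and 2 without RNA integrity. Leaving out 1 library gave 0 to 6 pathway genes in cortex (0 without nPM replicates 2 or 4 or control replicate 2, 1 without control replicate 3 or nPM replicate 5, 4 without control replicates 4 or 6, 6 without nPM replicate 6) and 0 to 3 in blood (0 without nPM replicate 2, 2 without nPM replicate 5 or control replicates 5 or 6, 3 without control replicate 2).

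For the interaction with sex, leaving out 1 library gave 1 to 2 members (2 without nPM replicate 4) and 3 to 7 pathway genes in cortex (3 without control replicate 2), and 0 to 2 members (2 without nPM replicate 6, 1 without control replicate 6) and 3 to 12 pathway genes in blood (12 without nPM replicate 1, 4 without nPM replicate 3 or control replicate 2, 3 without nPM replicates 4 or 5). With all 12 blood libraries 2 members passed the unadjusted threshold and the Slc7a1 interaction was 0.95. The cortex interaction of Nos2 was -0.0367 without RNA integrity. Leaving out 1 library turned the sign of the cortex interactions of Nos1 (-0.0592 to 0.16), Nos2 (-0.27 to 0.37), Nos3 (-0.0868 to 0.27), Slc7a1 (-0.0129 to 0.16), Slc7a2 (-0.0482 to 0.11), Slc7a3 (-0.13 to 0.11) and Arg2 (-0.43 to 0.13), of the tissue difference of Arg2 (-0.31 to 0.0906), and of the blood exposure effects of Odc1 (-0.18 to 0.14) and Ass1 (-0.06 to 0.49). It moved the tissue differences of Slc7a2 over 2.83 to 11.9, Slc7a3 over 5.47 to 11.1 and Nos2 over 1.04 to 6.65. The median blood interaction over all genes was 0.0877, and 0.336 with a count in any library. Members called higher in cortex numbered 3 with all 6 control blood libraries and 8 with library totals alone, an alternative chosen after seeing the data. The tissue difference of Arg2 was 0.00668 with a count in any library and 4.17 with library totals alone, and that of Ass1 was -0.11 with all 6 control blood libraries. The causes were not tested. Depth limits Arg1 in both tissues and 6 members in blood. The 2 control females in blood were not left out, since only 1 would remain. No paired analysis was possible because replicate numbers follow accession order and the labels tie no libraries to an animal, litter or day.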
